A study of Mus musculus with 15 samples.

Results

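The genes described here are the 4 mouse fibroblast growth factor (FGF) receptors with a kinase domain, Fgfr1, Fgfr2, Fgfr3 and Fgfr4. Their members on the array are all probes, control spots excluded, whose transcript accession belongs to 1 of these genes, which gave 9 of 55681 probes and 18 of 59305 spots. They stand for 4 of the 21154 genes that could be named. The genes were chosen from measured values, because the differences of Fgfr1 and Fgfr3 between FLT-Surgery and G-Surgery, and the disagreement of the Fgfr1 probes in these Surgery arrays, were already known. For the receptors, every value that involves a Surgery array is therefore given as a description with no test, and tests are given for FLT-Sham against G-Sham.

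RNA came from the femoral midshaft of male C57BL/6J mice, labelled as 9-week old, with 1 array per mouse. The study gives this as the approximate age at surgery, and the mice were killed some weeks later, at the end of the flight period. Mice of the FLT groups were flown in space and mice of the G groups stayed on the ground. Mice of a condition were group-housed and the ground groups ran asynchronously to flight, so that housing unit and run date go with the group. Surgery mice had a segmental bone defect bridged by a scaffold with a collagen sponge soaked in saline, and no growth factor was added. Sham mice are labelled as unoperated and called sham-operated in the methods, and the same stretch of their femur was taken. FLT-Surgery had 3 arrays and each of the other groups 4. The study describes the quality of the bone RNA as similar and low in its ground and flight cohorts, and no deletion or transgene was involved.

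FGF receptors are tyrosine kinases of the cell surface that bind FGF ligands together with heparan sulphate or a Klotho protein, and signal through the adaptor Frs2 to the MAP kinase cascade. The cascade raises the ETS factors Etv4 and Etv5 and its own inhibitors, the Sprouty proteins and the phosphatase Dusp6. In the skeleton, Fgfr1 acts in mesenchymal cells, osteoblasts and osteocytes, Fgfr2 in osteoprogenitors and osteoblasts, and Fgfr3 in growth plate chondrocytes, where it restrains their proliferation. Fgfr4 is known mainly from liver, as the receptor of the bile acid signal, and from regenerating muscle. Alternative splicing gives Fgfr1, Fgfr2 and Fgfr3 isoforms with different ligand preferences, so that probes at different places in 1 gene need not read the same transcripts.

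On each array the sample carried Cy5 and a commercial reference RNA, made from 11 cell lines, carried Cy3. Values are the deposited log2 ratio of Cy5 to Cy3, so that 0 means a signal equal to the reference. The Cy5 channel was the weaker one. It was well above background, by the scanner software's own test, for 22.4% to 38.5% of probes per array, against 46.4% to 63.3% in Cy3, and its linear dye factor was 16.7 to 79.3 times that of Cy3. The number of probes above background in Cy5 was 14303 to 20687 in G-Surgery and 12488 to 14257 in FLT-Surgery, ranges that did not overlap. FLT-Sham replicate 8 had 14812 such probes and the other FLT-Sham arrays 19420 to 21460, and results that rest on it are given with and without it. The G-Sham arrays had 12861 to 18291, so that without replicate 8 all FLT-Sham arrays lay above all G-Sham arrays. Of 12 osteoblast and osteocyte markers, Col1a1, Col1a2 and Bglap2 were above background on all 15 arrays, and Sp7, Dmp1, Phex and Sost on none. Of 10 skeletal muscle markers, 8 were above background on all 15. The arrays lay on 3 slides, and their number limits the precision of all values.

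Each receptor gene was represented by a single transcript accession, although the RefSeq annotation of GRCm38.p6 lists more transcripts for each. Fgfr1, on chromosome 8, had 3 probes on NM_010206 and has 3 listed transcripts. Fgfr2, on chromosome 7, had 2 probes on NM_010207 and has 3. Fgfr3, on chromosome 5, had 2 probes on NM_001163215 and has 7. Fgfr4, on chromosome 13, had 2 probes on NM_008011 and has 3. The files name mm9 as their build and hold no probe sequences, so the place of each probe within its transcript is not given here.

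Detection separated the probes of 1 gene. Both Fgfr1 probes A_55_P2057777 and A_55_P1967015 were above background in Cy5 on all 15 arrays, whereas the third, A_55_P1967022, was above it on 4. For Fgfr2, A_55_P2094881 was detected on 11 arrays and A_51_P432403 on 0. For Fgfr3, A_55_P1996578 was detected on 9 arrays and A_65_P06147 on 2. For Fgfr4, A_55_P2121871 was detected on 9 arrays and A_55_P2120055 on 4. In the Cy3 reference, 7 of the 9 probes were above background on all 15 arrays, A_51_P432403 was above it on 13 and A_55_P2120055 on 2. The plot of every probe on every array shows these values.

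**Figure D1:**
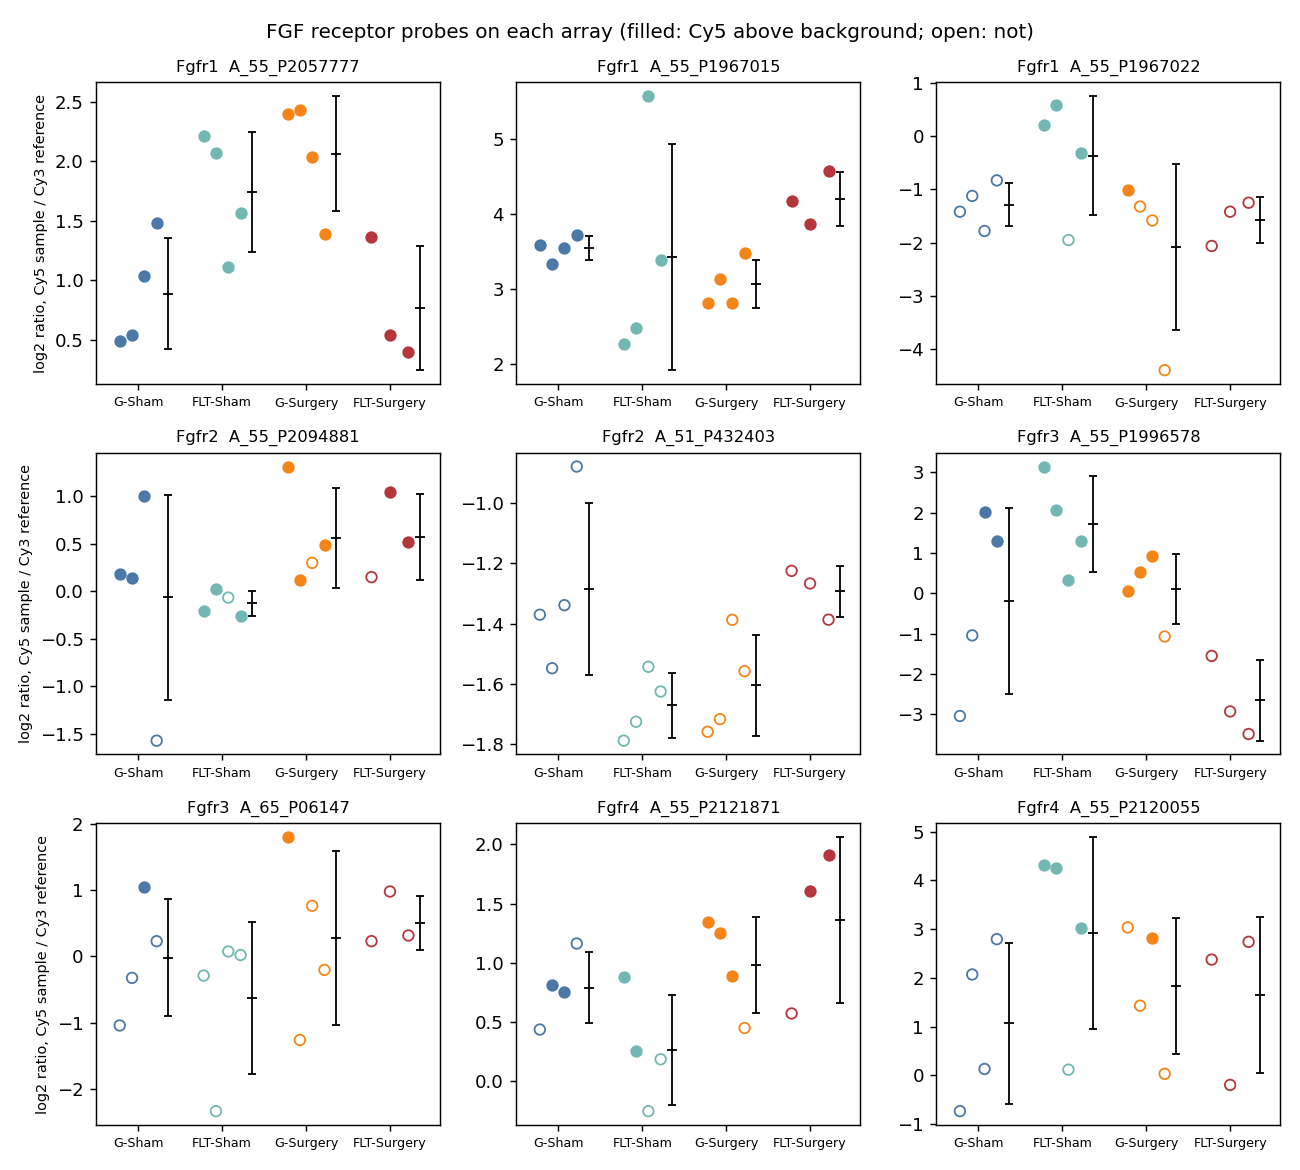
Log2 ratio of sample (Cy5) to reference (Cy3) of each FGF receptor probe on each array, by group. Filled points are above background in Cy5 and open points are not, and the bars beside each group show its mean ± SD (n = 4, and n = 3 in FLT-Surgery); the vertical scale differs between panels. The first Fgfr1 panel is lowest in FLT-Surgery and the second is highest there apart from 1 FLT-Sham array, while all FLT-Surgery points of Fgfr3 A_55_P1996578 are open.

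Fgfr1, the main FGF receptor of mesenchymal and bone cells, was read most brightly by A_55_P2057777. Its log2 ratio was 0.49, 0.54, 1.03 and 1.48 on the G-Sham arrays and 2.22, 2.07, 1.11 and 1.57 on the FLT-Sham arrays. It was 2.40, 2.43, 2.04 and 1.39 in G-Surgery and 1.36, 0.54 and 0.39 in FLT-Surgery. G-Surgery lay above FLT-Surgery without overlap, although the closest arrays of both groups differed by little, while FLT-Sham and G-Sham overlapped through FLT-Sham replicate 8 and G-Sham replicate 5. The group means were 0.88 ± 0.47 in G-Sham, 1.74 ± 0.51 in FLT-Sham, 2.07 ± 0.48 in G-Surgery (SD, n = 4 each) and 0.77 ± 0.52 in FLT-Surgery (SD, n = 3). In the order of means, FLT-Surgery and G-Sham differed by less than their SD, as did FLT-Sham and G-Surgery. The median Cy5 reading minus its local background ranged from 53 scanner units in FLT-Surgery replicate 3 to 1022 in FLT-Sham replicate 6.

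The second Fgfr1 probe, A_55_P1967015, gave another order. Its log2 ratio was 3.59, 3.33, 3.55 and 3.71 in G-Sham and 2.27, 2.49, 5.57 and 3.39 in FLT-Sham. It was 2.82, 3.14, 2.81 and 3.48 in G-Surgery and 4.17, 3.86 and 4.58 in FLT-Surgery. Here FLT-Surgery lay above G-Surgery without overlap, and FLT-Sham held both the lowest and the highest of the 15 values, the highest being replicate 8. Group means were 3.54 ± 0.16 in G-Sham, 3.43 ± 1.51 in FLT-Sham, 3.06 ± 0.32 in G-Surgery (SD, n = 4 each) and 4.20 ± 0.36 in FLT-Surgery (SD, n = 3). The Cy5 reading above local background was 27 to 125 scanner units.

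FLT-Surgery was lower than G-Surgery by A_55_P2057777, with a log2 difference of -1.30 (SE 0.38), and higher by A_55_P1967015, with 1.14 (SE 0.30). Both values helped to choose the gene. Over all 16542 probes compared, the median difference between these groups was -0.20, and relative to it the 2 probes stood at -1.10 and 1.34. After a second loess normalization the median of all probes was 0.29, and the probes stood at -1.25 and 1.45 relative to it. The opposite signs were thus present on both scales. Among the arrays of slide 1 the differences were -1.48 and 1.18, and leaving out any 1 array gave -1.60 to -1.11 and 0.95 to 1.31. With normexp background correction the second probe gave 0.62. The study lists Fgfr1 as higher in FLT-Surgery than in G-Surgery by array and by real-time PCR. That is the sign of A_55_P1967015 and the opposite of that of A_55_P2057777, and the study does not name its array probe.

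The probes ran against each other across the arrays. Over 15 arrays the Pearson correlation of their log2 ratios was -0.62 (Spearman -0.71), and after group means were removed it was -0.55. In the Cy3 channel, which carried the same reference RNA on every array, the correlation of their signals was 0.78. All 15 points share arrays, reference and dye scaling. Over the 8 Sham arrays, which were not used to choose the gene, Pearson's r was -0.50 and Spearman's rho was -0.52 (exact permutation tests over pairings, two-sided, p = 0.207 and p = 0.197, 1 relation tested). Without the 2 Sham arrays farthest from the median of A_55_P2057777 r was -0.39, without FLT-Sham replicate 8 it was -0.75, and within the 4 G-Sham arrays it was 0.71. Neither coefficient passed 0.05 in the Sham arrays alone.

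**Figure D2:**
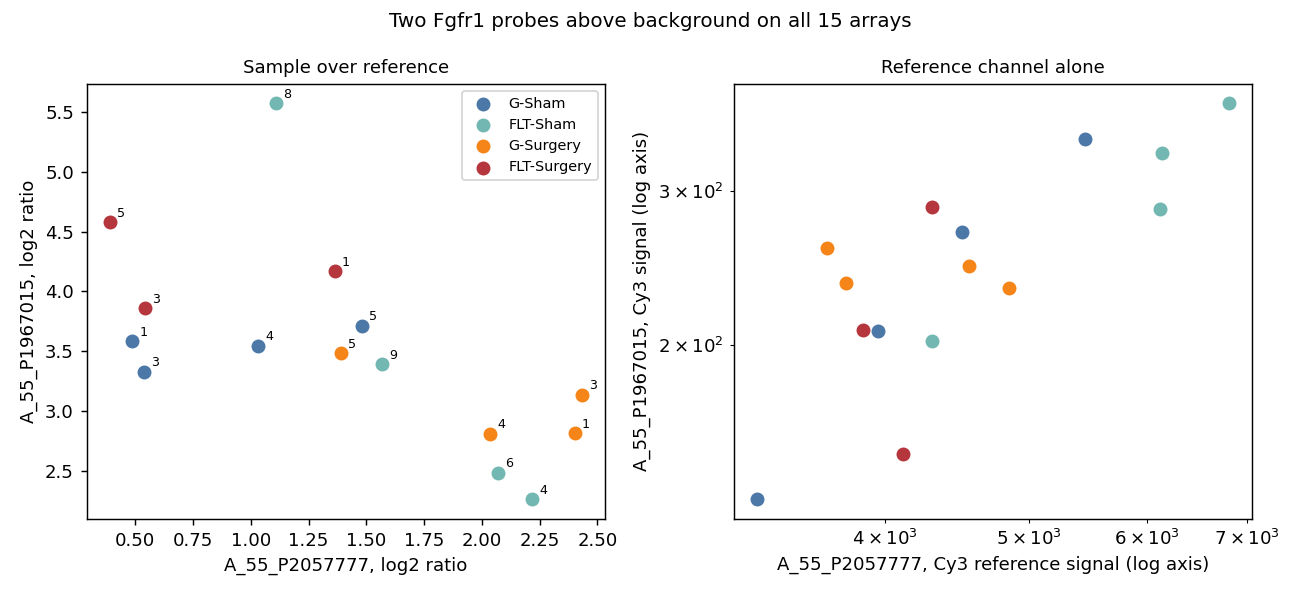
Fgfr1 probe A_55_P1967015 against A_55_P2057777 on the 15 arrays, as log2 ratio of sample to reference (left, replicate numbers beside the points) and as Cy3 reference signal in scanner units on log axes (right). The ratios fall from upper left, with all FLT-Surgery arrays, to lower right, with most G-Surgery arrays (r = -0.62), while the reference signals rise together (r = 0.78).

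The disagreement of the Fgfr1 probes in the Surgery arrays helped to choose the gene, and the correlation over 15 arrays includes those arrays. Its place among other genes is therefore given as a description only. In 496 genes at least 2 probes were above background in Cy5 on all 15 arrays. The median correlation of their brightest pair was 0.47, in 119 genes (24.0%) it was below 0, and in 18 (3.63%) it was as low as that of Fgfr1 or lower, Fgfr1 included. After a second loess 24 genes (4.84%) were as low. In the Cy3 channel no gene had a correlation below 0 (0 of 496) and the median was 0.90.

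**Figure D3:**
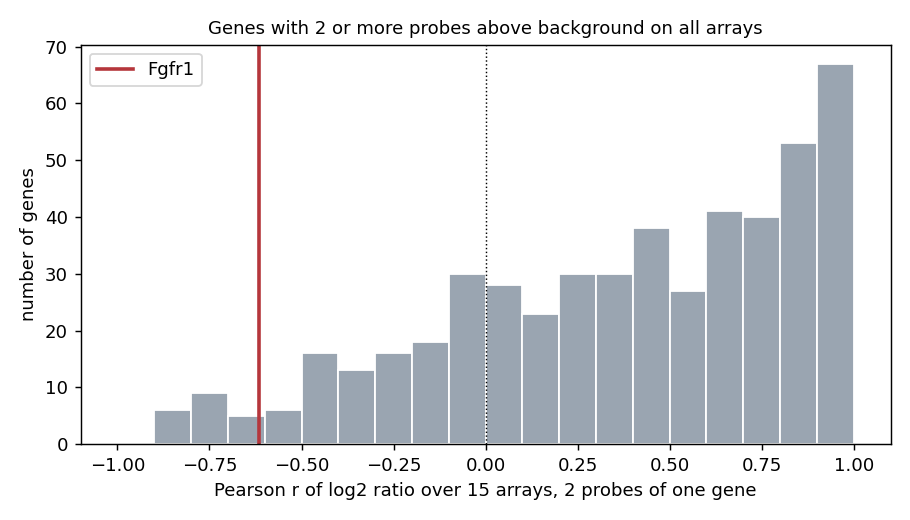
Pearson correlation over 15 arrays of the log2 ratios of the brightest pair of probes of a gene, for the 496 genes with at least 2 probes above background on all arrays; bars count genes. The line marks Fgfr1 at -0.62, in the lower tail, and most genes lie above 0 with a median of 0.47.

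The third Fgfr1 probe, A_55_P1967022, was dim. Its log2 ratio was -1.42, -1.12, -1.78 and -0.83 in G-Sham, all below background, and 0.21, 0.59, -1.95 and -0.32 in FLT-Sham, where replicate 8 alone was below background. It was -1.02, -1.32, -1.58 and -4.39 in G-Surgery, with replicate 1 above background, and -2.06, -1.42 and -1.25 in FLT-Surgery, with none above it. The 3 highest values were thus those of FLT-Sham replicates 4, 6 and 9, which were also high for A_55_P2057777. The groups overlapped, since FLT-Sham replicate 8 was below every G-Sham array, and the log2 difference was 0.92 (limma adjusted p = 0.532). By the Cy5 signal the group means differed 1.5-fold, and 1.19-fold after a second loess. Where a group was below background on all its arrays, "at least" marks a fold against, on each of these arrays, the higher of the lowest signal above background and the probe's own signal. For A_55_P1967022 its own signal was the higher, so that 1.5-fold is also the fold of the means. Such folds can carry a dye effect, since every array had the same dye orientation.

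Fgfr2, a receptor of osteoprogenitors, was readable with A_55_P2094881 alone. The log2 ratio was 0.18, 0.14, 1.0 and -1.57 in G-Sham and -0.21, 0.02, -0.07 and -0.26 in FLT-Sham. It was 1.31, 0.12, 0.30 and 0.49 in G-Surgery and 0.15, 1.05 and 0.52 in FLT-Surgery. Surgery and Sham values overlapped on the ground, and in flight all 3 FLT-Surgery values lay above all FLT-Sham values, by 0.70 in the mean (SE 0.36). Relative to the median of all probes this difference was 0.98, and after a second loess it was 1.77 relative to the median. G-Surgery and FLT-Surgery had nearly equal means, 0.56 ± 0.53 (SD, n = 4) and 0.57 ± 0.45 (SD, n = 3), a difference of 0.02 (SE 0.38), which a second loess moved to 1.05.

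The other Fgfr2 probe, A_51_P432403, was printed at 10 spots per array and shows how far a value below background can be read. None of its spots kept for analysis was above background in Cy5, and 11 spots over all arrays were left out as outliers. The SD between its spots on an array was 0.11 to 0.55 (median 0.30) on the log2 scale, while the SD between the 15 array means was 0.25. The array means lay between -1.79 and -0.88. By its mean ratio FLT-Surgery was above G-Surgery by 0.31 and above FLT-Sham by 0.38, with no overlap in either case, at a signal that was not detected.

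Fgfr3, the receptor that restrains growth plate chondrocytes, showed the widest range with A_55_P1996578. Its log2 ratio was -3.04, -1.04, 2.01 and 1.31 in G-Sham, with replicates 4 and 5 above background, and 3.15, 2.07, 0.34 and 1.31 in FLT-Sham, all above it. It was 0.05, 0.53, 0.93 and -1.07 in G-Surgery, with all but replicate 5 above background, and -1.55, -2.93 and -3.49 in FLT-Surgery, with none above it. FLT-Surgery lay below both FLT-Sham and G-Surgery without overlap, while G-Sham spanned most of the range of all arrays. The Cy5 reading above local background was 3.5 to 11 scanner units in FLT-Surgery, 12 to 18 in G-Surgery, 11 to 66 in FLT-Sham and 6 to 46 in G-Sham, so that a few units decide these ratios.

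As a description, Fgfr3 A_55_P1996578 was lower in FLT-Surgery than in G-Surgery by -2.77 (SE 0.61) and lower than in FLT-Sham by -4.38 (SE 0.75) on the log2 scale, the second on arrays shared with the first. By the Cy5 signal, under the deposited normalization, G-Surgery was at least 2.40-fold and FLT-Sham at least 5.50-fold higher than FLT-Surgery. With normexp background correction, which damps dim signals, the log2 differences were -0.26 and -0.85, smaller than these folds. The probe no longer met the filter of 3 arrays above background when G-Surgery replicate 1, 3 or 4 was left out, or within slide 1. Without FLT-Sham replicate 8 the difference from FLT-Sham was -4.83.

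The second Fgfr3 probe, A_65_P06147, was above background in G-Sham replicate 4 and G-Surgery replicate 1 only, at 1.05 and 1.80. In FLT-Surgery its log2 ratio was 0.23, 0.98 and 0.32, all below background, within the range of -1.26 to 1.80 in G-Surgery. For the FLT-Surgery arrays, where A_55_P1996578 was lowest, the second probe thus held no detected value to set beside it. Over 15 arrays the Fgfr3 probes correlated at -0.13, and both were above background on only 2.

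Fgfr4 was close to background with both probes. A_55_P2121871 gave log2 ratios of 0.43, 0.81, 0.75 and 1.16 in G-Sham and 0.88, 0.25, -0.26 and 0.18 in FLT-Sham. It gave 1.34, 1.26, 0.89 and 0.45 in G-Surgery and 0.57, 1.61 and 1.91 in FLT-Surgery. All 4 groups overlapped with their neighbours, and 2, 2, 3 and 2 arrays were above background in that order of groups. A_55_P2120055 gave 4.31, 4.26, 0.11 and 3.02 in FLT-Sham, all but replicate 8 above background, and -0.74, 2.07, 0.13 and 2.80 in G-Sham, none above it. In G-Surgery 1 array was above background, at 2.83, and in FLT-Surgery none was. The reference channel was above background for this probe on 2 of 15 arrays, so that its high ratios stand over a Cy3 signal that was mostly not detected.

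The question of a spaceflight effect without a defect can be tested in FLT-Sham against G-Sham, whose receptor values did not choose the genes. Of 7 receptor probes bright enough to test, 0 passed a fold change of 2 with an unadjusted p of 0.01 in limma, 0 had an unadjusted p below 0.05 in this setting, and the cut-off was passed by 2.0% of all 19737 probes tested. A_55_P1967022 and A_55_P2120055 could be fitted only through FLT-Sham, as no G-Sham array was above background for them. The smallest p was that of Fgfr1 A_55_P2057777, with a log2 difference of 0.86 (SE 0.38, limma adjusted p = 0.515). Its unadjusted p was below 0.05 with normexp, where the difference was 0.74, and at the same 0.86 with no filter, with both channels above background or with all 15 arrays in the fit. Fgfr3 A_55_P1996578 differed by 1.91 (SE 1.11) and Fgfr4 A_55_P2120055 by 1.86 (SE 1.10), with adjusted p-values of 0.529 and 0.531 in limma, the latter being at least 1.70-fold, with groups that overlapped. With normexp these differences were 0.30 and 0.39, and with slide as a block that of Fgfr3 was 2.72, with an unadjusted p below 0.05. Leaving out 1 array gave 0.96 to 2.64 for Fgfr3, the lowest without G-Sham replicate 1 and the highest without G-Sham replicate 4. Without G-Sham replicate 1 Fgfr4 A_55_P2120055 stood at 1.26. Fgfr4 A_55_P2121871 stood at -0.53 (SE 0.35), Fgfr1 A_55_P1967015 at -0.12 (SE 0.68) and Fgfr2 A_55_P2094881 at -0.07 (SE 0.52). These 3 values depended on the scaling. After a second loess they were -1.41, -0.66 and -0.96, with median centring -0.82, -0.41 and -0.36, and with Cy5 alone -0.99, -0.32 and -0.30. In these 3 settings Fgfr4 A_55_P2121871 had an unadjusted p below 0.05, and it did not pass the cut-off in any of them. The median of all probes was 0.24, and -0.13 after a second loess. No probe of the array had an adjusted p of 0.05 or less, and 1889 had an unadjusted p of 0.05 or less.

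FLT-Sham replicate 8 decided several of these values. Without it, A_55_P2057777 stood at 1.07 and A_55_P1967015 at -0.83, both with an unadjusted p below 0.05 in limma and neither past the cut-off. A_55_P1967022 stood at 1.45 and passed the cut-off, but it could be fitted only through the 3 FLT-Sham arrays above background, with 0 in G-Sham, so that this call is no support for a difference. Fgfr4 A_55_P2120055 then stood at 2.80 and Fgfr3 A_55_P1996578 at 2.37, neither past the cut-off. The number of probes called on the whole array rose at the same time from 394 to 2068, so that the receptors moved with a change that was seen across the array. The FLT-Sham arrays that remained all had more probes above background in Cy5 than any G-Sham array. The part of this in the values was not tested.

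**Figure D4:**
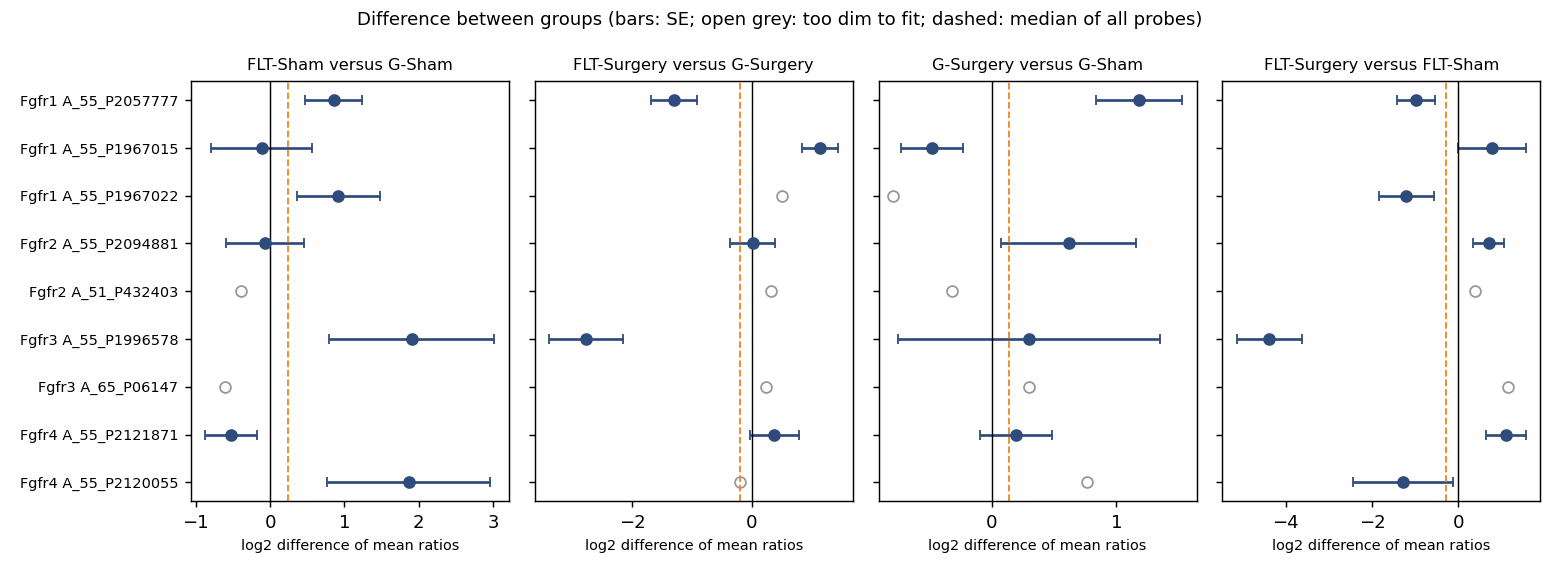
Difference of mean log2 ratio between groups (first minus second named) for each receptor probe, with SE from limma; open grey points are probes too dim to be fitted in that comparison, and the dashed line is the median of all probes fitted. In FLT-Surgery against G-Surgery the bright Fgfr1 probes lie at -1.30 and 1.14 on either side of 0, and Fgfr3 A_55_P1996578 lies lowest at -2.77.

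Whether probes of 1 receptor gene differed in their spaceflight change was tested in the Sham arrays for the 3 pairs with both probes bright enough. The change of A_55_P2057777 exceeded that of A_55_P1967015 by 0.97 (exact permutation test, two-sided, p = 0.343) and that of A_55_P1967022 by -0.06 (exact permutation test, p = 0.857). For Fgfr4, A_55_P2121871 minus A_55_P2120055 was -2.39 (exact permutation test, p = 0.0857). Thus 0 of 3 pairs differed at 0.05, where 0.0286 was the smallest p that 4 against 4 arrays allow. A_55_P1967022 and A_55_P2120055 had no G-Sham array above background and entered only through FLT-Sham. The tests of their pairs therefore cannot decide the question, and only the bright Fgfr1 pair was read in both groups. Without FLT-Sham replicate 8, the bright Fgfr1 pair differed by 1.90, with exact p = 0.0286. Without FLT-Sham replicate 4 or 6 the pair differed by 0.43 or 0.55, and on the arrays of slide 2 by 0.43. Leaving out any other array gave 0.83 to 1.11.

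The within-array gap between the bright Fgfr1 probes, A_55_P2057777 minus A_55_P1967015, averaged -2.66 ± 0.37 in G-Sham, -1.69 ± 2.0 in FLT-Sham, -1.0 ± 0.75 in G-Surgery (SD, n = 4 each) and -3.44 ± 0.70 in FLT-Surgery (SD, n = 3). The gap cancels any shift common to an array. The gap in Surgery rests on the values that chose the gene, and what follows sets it beside other genes as a description only. Across the array, of 1230 genes with at least 2 probes fitted in FLT-Surgery against G-Surgery, 482 (39.2%) had probes of opposite sign, and in 43 (3.50%) the changes spread as widely as the 2.44 of Fgfr1 or more. In FLT-Sham against G-Sham, 630 of 1741 genes (36.2%) had probes of opposite sign. There the spread of 1.04 of the Fgfr1 probes was reached by 29.5% of genes and the spread of 2.39 of the Fgfr4 probes by 3.62%. Probes of opposite sign were thus found in over 1 in 3 of these genes in both comparisons.

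In Surgery against Sham, too, the bright Fgfr1 probes had opposite signs. On the ground A_55_P2057777 was higher in G-Surgery than in G-Sham by 1.18 (SE 0.34), with 1 G-Surgery array inside the G-Sham range, and A_55_P1967015 was lower by -0.48 (SE 0.25). In flight A_55_P2057777 was lower in FLT-Surgery than in FLT-Sham by -0.98 (SE 0.44) and A_55_P1967015 was higher by 0.77 (SE 0.79), the latter 1.49 without FLT-Sham replicate 8 and -0.07 with normexp. The medians of all probes were 0.14 and -0.28 in these comparisons, and -0.08 and 0.35 after a second loess. Fgfr2 A_55_P2094881 differed by 0.62 (SE 0.54) on the ground, Fgfr3 A_55_P1996578 by 0.30 (SE 1.05) and Fgfr4 A_55_P2121871 by 0.19 (SE 0.29). After a second loess these 3 ground values were 0.11, 0.01 and -0.25. These comparisons share arrays with those above and add no independent evidence.

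Some receptor values moved with the array's overall signal, and its part in them was not tested. Over 15 arrays the log2 ratio of A_55_P2057777 correlated with the number of probes above background in Cy5 at 0.58, and that of Fgfr3 A_55_P1996578 at 0.67. The correlation was -0.61 for A_55_P1967015 and -0.75 for the undetected Fgfr2 probe A_51_P432403. It was 0.46 for A_55_P1967022 and 0.57 for Fgfr4 A_55_P2120055. Fgfr2 A_55_P2094881 stood at 0.14, Fgfr3 A_65_P06147 at -0.16 and Fgfr4 A_55_P2121871 at -0.24. After a second loess A_55_P2057777 stood at 0.43, A_55_P1967015 at -0.81 and A_55_P1967022 at -0.18. A_55_P2094881 then stood at -0.66 and A_55_P2121871 at -0.85. For A_55_P2057777 and A_55_P1967015 the SD over arrays was 0.87 and 0.76 in log2 Cy5 and 0.31 and 0.42 in log2 Cy3, so that the sample channel varied more than the shared reference.

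The genes most like each bright Fgfr1 probe were sought among 4508 genes above background on all 15 arrays. For A_55_P2057777 they were Nisch, Zswim8, Pkd1, Nudcd3 and Rell1, with Pearson correlations of 0.938 to 0.973 over the 15 arrays. For A_55_P1967015, added after its values were seen, they were Spag7, Hpca, Luc7l2, Trem1 and Skint7, with 0.944 to 0.960. Signals of these genes in the Cy3 channel also correlated with those of their Fgfr1 probe, at 0.71 to 0.93. No other receptor gene had a brightest probe above background on at least 12 arrays.

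Markers of other cell types also moved with the receptors, which in bulk RNA leaves fewer cells of a type and less RNA per cell indistinguishable; their part in the receptor values was not tested. The mean log2 ratio of 6 fibroblast and tenocyte markers correlated over 15 arrays with A_55_P2057777 at 0.83 and with Fgfr3 A_55_P1996578 at 0.90. One of these markers, Dcn, was above background on all arrays, and the summed Cy5 signal of the list was 7310 to 46400 in G-Sham, 27000 to 135000 in FLT-Sham, 26100 to 76800 in G-Surgery and 4280 to 46000 in FLT-Surgery. For the 12 osteoblast and osteocyte markers the correlations were 0.71 and 0.90, with 3 on all arrays and 4 on none. Their summed signal was 165000 to 395000 in G-Sham, 287000 to 492000 in FLT-Sham, 252000 to 549000 in G-Surgery and 188000 to 315000 in FLT-Surgery. For the 10 skeletal muscle markers they were 0.49 and 0.80, with a summed signal of 389000 to 1970000, 511000 to 5600000, 251000 to 1180000 and 78900 to 1030000 in the same order of groups.

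Of the 9 chondrocyte markers, Col10a1, Sox9, Matn3, Hapln1 and Ihh were above background on no array and Col2a1 on 8, among them all 4 G-Surgery arrays and 1 FLT-Surgery array. The list's correlations were 0.65 with A_55_P2057777 and 0.31 with A_55_P1996578. Its summed signal was 740 to 1070 in G-Sham, 999 to 6780 in FLT-Sham, 1960 to 22100 in G-Surgery and 835 to 1190 in FLT-Surgery. The correlations with A_55_P2057777 were 0.87 for 5 osteoclast markers, with Calcr on no array, and 0.80 for 6 endothelial markers, with Tek on none. They were 0.43 for 6 adipocyte markers, with Lep on none, 0.39 for 7 neutrophil, 0.23 for 5 erythroid and 0.20 for 4 B cell markers, of which 4, 1 and 0 were above background on all arrays. With Fgfr3 A_55_P1996578 the correlations were 0.78 for endothelial, 0.78 for adipocyte, 0.73 for neutrophil, 0.66 for erythroid, 0.66 for osteoclast and 0.40 for B cell markers. The summed signal of the endothelial list was 5540 to 15900 in G-Sham, 15000 to 16700 in FLT-Sham, 12400 to 25400 in G-Surgery and 17300 to 57600 in FLT-Surgery, so that its top lay in FLT-Surgery, unlike that of the fibroblast, bone and muscle lists. Its mean log2 ratio was 0.73 to 1.33, 0.85 to 3.05, 1.07 to 2.12 and 0.66 to 1.31 in the same order, with the top outside FLT-Surgery. Of the FLT-Surgery arrays, Pecam1 and Kdr were above background on 3, Vwf on 1 and Cdh5, Emcn and Tek on 0. With A_55_P1967015 the correlation was negative for each of the 10 lists, from -0.76 for endothelial to -0.07 for B cell markers.

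Other genes of the FGF pathway were followed as 4 lists of 76 genes in all, tested in every comparison. The list named ligands holds the FGF family as a whole, including Fgf11, Fgf12, Fgf13 and Fgf14, intracellular homologous factors that are not secreted and are not known as activators of the receptors. In FLT-Sham against G-Sham 43 were bright enough, 2 rose past the cut-off and 0 fell, where 2.35% of all genes tested rose and 0.145% fell. Both genes passed by a probe that was above background in FLT-Sham only, and so could be fitted only through the group where it was high, so that these 2 calls are no support for a change of the list. The first was Fgfbp3, a secreted carrier that releases FGFs from the matrix. Its log2 ratio was -1.90, -2.26, -1.22 and -2.21 in G-Sham, none above background, and -0.17, -0.61, 0.14 and -0.51 in FLT-Sham, all above it. This makes FLT-Sham at least 2.17-fold higher (limma adjusted p = 0.387), without overlap. The log2 difference was 1.61 (SE 0.36), and 0.74 after a second loess. Nras, a GTPase between receptor and MAP kinases, passed by 1 of its 3 probes, A_52_P649296, detected on 3 arrays of FLT-Sham and none of G-Sham, and was at least 2.12-fold higher in FLT-Sham (limma adjusted p = 0.410), while its brightest probe A_51_P396273 stood at -0.13 (SE 0.52). The median change of the 43 genes was 0.23, beside 0.24 over all probes.

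Between FLT-Surgery and G-Surgery 29 pathway genes were tested, 0 rose and 2 fell, where 0.682% of all genes rose and 3.08% fell. Fgf18, an FGF ligand of cartilage and bone that binds Fgfr3, fell in FLT-Surgery by its probe A_55_P2211319. It stood at 2.32, 3.03, 2.53 and 1.97 in G-Surgery and 1.72, 0.48 and 0.51 in FLT-Surgery, all above background and without overlap. The log2 difference was -1.56 (SE 0.41, limma adjusted p = 0.280), and -0.62 after a second loess. Its dimmer probe A_55_P1976356 stood at -1.58 (SE 0.54), with no FLT-Surgery array above background. It could be fitted only through G-Surgery, so that its sign is no support for the fall. Shc1, an adaptor of receptor tyrosine kinases, fell by 1.34 on the log2 scale (SE 0.36, limma adjusted p = 0.280), without overlap, and stood at -0.78 after a second loess. With that setting neither gene passed the cut-off. The decoy receptor Fgfrl1, which lacks a kinase domain, stood at -0.89 (SE 0.29) and the bone hormone Fgf23 at 0.75 (SE 0.33), both without overlap and neither past the cut-off. The median of the 29 genes was -0.40, beside -0.20 over all probes. By role, 1 of 7 genes of the FGF family passed (median -0.23), 0 of 5 co-receptors and carriers (median -0.51), 1 of 12 signal transducers (median -0.56) and 0 of 5 feedback inhibitors and target genes (median -0.14).

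In G-Surgery against G-Sham 35 pathway genes were tested in limma, none passed the cut-off in either direction, 1 had an unadjusted p below 0.05, and 2.96% of all genes rose and 0.506% fell. The median of the 35 genes was 0.12, beside 0.14 over all probes. In FLT-Surgery against FLT-Sham 40 were tested, 0 rose and 8 fell, where 0.316% of all genes rose and 9.31% fell. The 8 were the ligands Fgf1, Fgf6, Fgf9 and Fgf18, the homologous factor Fgf13, the carrier Fgfbp3, the adaptor Crk and Nras, and none had an adjusted p of 0.05 or less. For 5 of them, Fgf9, Fgf13, Fgfbp3, Crk and Nras, the probe that passed was above background on 0 FLT-Surgery arrays and could be fitted only through FLT-Sham, so that the count of 8 is no support for a change of the list. Fgf9, a ligand of Fgfr3, gave 2.37, 1.98, 1.87 and 2.39 in FLT-Sham, all above background, and 1.0, -1.71 and -1.96 in FLT-Surgery, none above it, which is at least 2.23-fold lower in FLT-Surgery (limma adjusted p = 0.136). Fgf1, which binds all FGF receptors, was above background on 4 FLT-Sham arrays and 1 FLT-Surgery array, with groups that overlapped and a log2 difference of -4.16 (SE 1.16). Fgf6, a ligand of muscle, was above it on 3 and 1, without overlap and with a log2 difference of -3.36 (SE 0.98). Both differences are taken against mostly undetected signals. Fgf18 was above background on all 7 arrays by A_55_P2211319, with a log2 difference of -1.42 (SE 0.41), and -0.29 after a second loess. Fgf13 was at least 1.63-fold lower by 1 probe, A_55_P2139809, while its brightest probe stood at 0.20 (SE 0.53). Crk was at least 4.17-fold lower, with groups that overlapped, and its log2 difference moved from -2.72 to -1.59 after a second loess. That of Fgfbp3 moved from -1.50 to -0.14. The median of the 40 genes was -0.61, beside -0.28 over all probes. By role, 5 of 9 genes of the FGF family passed, 1 of 7 co-receptors and carriers, 2 of 15 signal transducers and 0 of 9 feedback inhibitors and target genes. The count of 8 became 15, 1 of them higher, without FLT-Sham replicate 8, 2 after a second loess and 1 with slide as a block.

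In the 4 comparisons, in the order given above, 10, 5, 6 and 9 feedback inhibitors and target genes were tested, and none passed the cut-off. Over all genes the share past it was at most 9.31% in a direction, so that no call among so few genes says little. Dusp6, the MAP kinase phosphatase, differed by 0.23 (SE 0.30) in FLT-Sham against G-Sham, by -0.38 (SE 0.40) in FLT-Surgery against G-Surgery and by 0.43 (SE 0.30) in G-Surgery against G-Sham. Etv5 stood at -0.27 (SE 0.41), 0.00 (SE 0.23) and 0.40 (SE 0.24), and Etv4 at -0.74 (SE 0.52), 0.27 (SE 0.35) and 0.12 (SE 0.27) in the same order. In FLT-Surgery against FLT-Sham Dusp6 stood at -0.19 (SE 0.41), Etv4 at 1.12 (SE 0.63) and Etv5 at 0.67 (SE 0.46). Spry1 and Spry2 could be fitted in the Sham and the flight comparisons only, and Spry1 was below background on all G-Sham and FLT-Surgery arrays. In these comparisons Spry1 stood at 1.33 (SE 1.16) and -2.50 (SE 1.17), and Il17rd at 1.52 (SE 0.80) and -2.1 (SE 0.87). Both were fitted only through FLT-Sham. Egr1 stood at 1.86 (SE 0.81) and -2.09 (SE 1.18) there, so that not all changes were small. Spry4, Fgf2 and the co-receptor Kl were too dim to be fitted in any comparison. The adaptor Frs2 and the ligand Fgf7 stayed between -0.53 and 0.43 in all 4, with no call. The plot of pathway changes sets each gene beside the median of all probes.

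**Figure D5:**
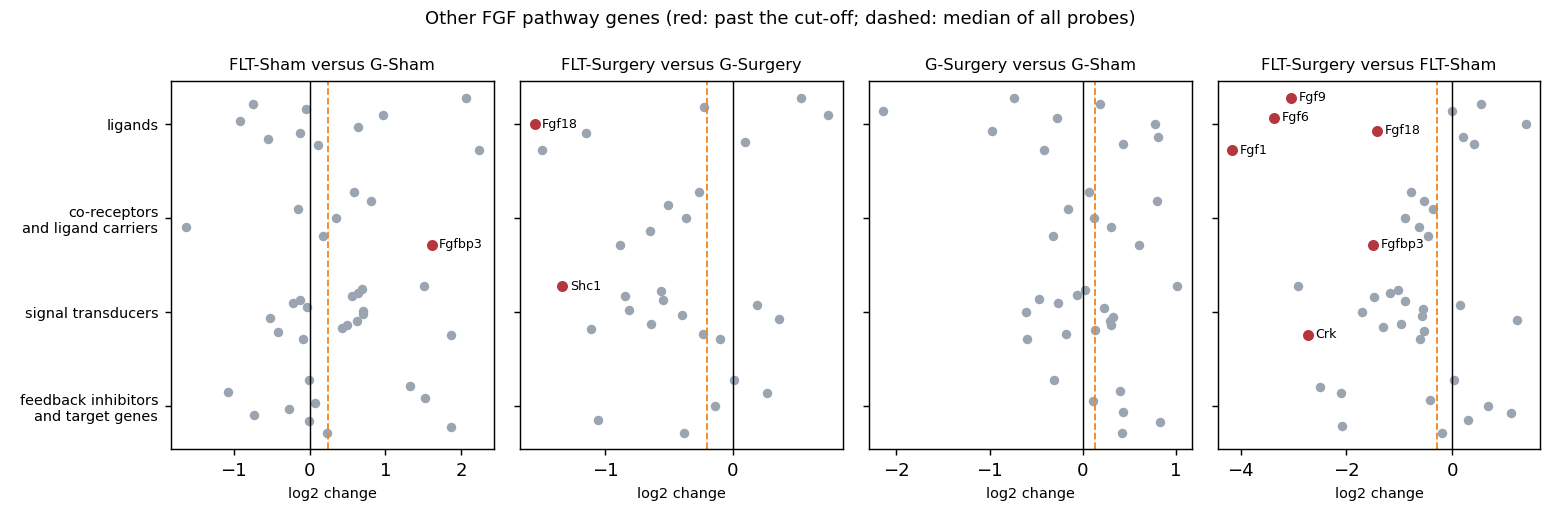
Log2 change of FGF pathway genes other than the receptors in the 4 comparisons, each by its brightest probe fitted, grouped by role; red points passed a fold change of 2 and an unadjusted p of 0.01, and the dashed line is the median of all probes. Red points number 1 in FLT-Sham against G-Sham (Fgfbp3), 2 in FLT-Surgery against G-Surgery (Fgf18, Shc1), none in G-Surgery against G-Sham and 6 in FLT-Surgery against FLT-Sham; Nras and Fgf13 passed by a dimmer probe that is not drawn.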

How the data were processed

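The authors deposited, for 15 two-colour Agilent arrays, the Feature Extraction output (12.0 per the labels) with the processed intensity of each spot in both channels, background-subtracted and normalized for dye by a linear factor and lowess, and the log10 ratio of Cy5 (sample) to Cy3 (reference). The series table the authors deposited holds the same log10 ratio. Ratios were put on the log2 scale with no further normalization. Outlier spots were left out, spots of a probe averaged, and 28026 of 55681 probes named through their accession. A probe entered a comparison if 3 or more of its arrays had a Cy5 signal well above background, and limma 3.58.1 (R 4.3.3) was run on the 2 groups alone. The cut-off was a fold change of 2 and an unadjusted p of 0.01, and a gene counted once if any probe passed.

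Members, gene lists and tests were chosen with earlier results of these data known. Named pathway genes were Fgf1, Fgf2, Fgf7, Fgf9, Fgf18, Fgf23, Kl, Fgfrl1, Frs2, Spry1, Spry2, Spry4, Dusp6, Etv4 and Etv5, plus up to 5 per comparison and direction with the largest change past the cut-off and no overlap. The others past it, Egr1 and Il17rd were named after their values were seen. Genes most like a receptor were the 5 with the highest correlation over 15 arrays. Marker lists covered osteoblast and osteocyte, chondrocyte, skeletal muscle, fibroblast and tenocyte, adipocyte, endothelial, osteoclast, neutrophil, erythroid and B cells. Lower bounds used the Cy5 channel after Aquantile normalization. Alternatives were a second loess, normexp (offset 50, on median signals, since no mean signal is in the files), median centring, Cy5 alone, other filters, the series table, outlier spots kept, slide as a block, arrays of 1 slide, all 15 arrays, adjusted p-values, the replicate block and leaving out each array. The fit was tested on simulated data. Samples of a group were separate mice, and p-values measure the spread between them.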

Additional observations from a re-analysis of the deposited data

Results flagged for a closer look

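Of 27 sets of 4 arrays (9 receptor probes in 3 groups), 2 held an array far from the other 3, where chance alone gives about 1 in 20. Fgfr1 A_55_P1967022 stood at -4.39 in G-Surgery replicate 5 against -1.58 to -1.02 on the other G-Surgery arrays, and Fgfr3 A_65_P06147 stood at -2.33 in FLT-Sham replicate 6 against -0.29 to 0.07. Both values were below background in Cy5.

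For 2 of 5 receptor probes fitted in both Sham and Surgery, the flight arrays all lay above the ground mean in Sham and all below it in Surgery. The spaceflight change of Fgfr1 A_55_P2057777 was 0.86 in Sham and -1.30 in Surgery, a difference of -2.16 on the log2 scale. That of Fgfr3 A_55_P1996578 was 1.91 in Sham and -2.77 in Surgery, a difference of -4.68. For Fgfr3 all 3 FLT-Surgery arrays and 2 of 4 G-Sham arrays were below background, so that these are differences against undetected signal, and with normexp the changes were 0.30 and -0.26. Neither difference was tested, because the Surgery values helped to choose the genes.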

How the results depend on the processing

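Counts of FGF pathway genes past the cut-off depended on the setting in 4 comparisons. In FLT-Sham against G-Sham (2 of 43 as reported), the count was 1 after a second loess, with median centring and with Cy5 alone, and 0 with normexp, with both channels above background on every array (18 genes tested), at an adjusted p of 0.05 and on the arrays of slide 2 (32 tested). Leaving out 1 array gave 1 to 7, with 7 without FLT-Sham replicate 8 (6 of them higher), 4 without G-Sham replicate 5 and 1 without FLT-Sham replicate 4, 6 or 9. In FLT-Surgery against G-Surgery (2 of 29), it was 0 after a second loess, with median centring and at an adjusted p of 0.05, 1 with normexp, which was higher rather than lower, and 6 on the arrays of slide 1. Leaving out 1 array gave 0 to 7. The count was 7 without FLT-Surgery replicate 1, 1 without FLT-Surgery replicate 5 or G-Surgery replicate 1, and 0 when FLT-Surgery replicate 3, G-Surgery replicate 3 or G-Surgery replicate 4 was absent. In G-Surgery against G-Sham (0 of 35) it was 1 with median centring, and leaving out 1 array gave 0 to 1, with 1 without G-Sham replicate 1 or G-Surgery replicate 5. In FLT-Surgery against FLT-Sham (8 of 40) it was 2 after a second loess, 0 with normexp, 4 with median centring and with Cy5 alone, 5 with no filter on dim probes, 1 with both channels above background, 1 with slide as a block and 0 at an adjusted p of 0.05, and leaving out 1 array gave 1 to 15. It was 15 without FLT-Sham replicate 8, 2 without FLT-Sham replicate 6 or 9, and 1 without FLT-Sham replicate 4 or FLT-Surgery replicate 3 or 5. The cause was not tested.

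In FLT-Sham against G-Sham, the count of receptor probes past the cut-off and the count of differing probe pairs were 0 to 1 when 1 array was left out, with 1 each without FLT-Sham replicate 8, and 0 under all other settings run. Signs that turned were those of small changes. Fgfr1 A_55_P1967015 stood at 0.10 with normexp, 0.17 on slide 2 and 0.20 and 0.27 without FLT-Sham replicates 6 and 4, with -0.83 to 0.27 over all arrays left out in turn. Fgfr2 A_55_P2094881 stood at 0.32 with slide as a block, 0.59 on slide 2 and -0.57 to 0.29 when 1 array was left out, with 0.02, 0.00 and 0.29 without G-Sham replicates 1, 3 and 4. The difference between A_55_P2057777 and A_55_P1967022 was 0.39 after a second loess, 0.58 with normexp, 0.21 with Cy5 alone, 0.11 with slide as a block and -0.38 to 0.15 when 1 array was left out, with 0.15 without G-Sham replicate 4.

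Replicate numbers are shared between Surgery and Sham labels, but the mice differ. With the replicate block, the pathway count was 0 of 28 in FLT-Surgery against G-Surgery and 0 of 35 in G-Surgery against G-Sham. Same-numbered arrays deviated together with correlations of -0.36 to 0.24 in the first and -0.16 to 0.35 in the second, so the numbers do not pair the samples. Under the block Fgfr1 A_55_P2057777 stood at -1.31 and A_55_P1967015 at 1.06 in the first comparison.

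With a second loess before the bound, the Fgfr3 bounds were 2.74-fold and 5.76-fold, and that of Fgfr1 A_55_P1967022 in Sham was 1.19-fold. Those of Fgfr4 A_55_P2120055, Fgfbp3 and Nras in Sham were 1.67-fold, 1.76-fold and 2.02-fold. In FLT-Surgery against FLT-Sham those of Fgf9, Fgf13 and Crk were 2.17-fold, 1.75-fold and 3.02-fold. An "at least" fold is thus a bound within its normalization only. Dim Cy5 signals limit what can be read for Fgfr2, Fgfr3 and Fgfr4.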
